A study of Mus musculus with 29 samples.

Results

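The cell cycle and proliferation genes are 40 mouse genes that dividing cells use to copy DNA, to build the mitotic spindle and to separate chromosomes. They were chosen by symbol, and all 40 were found among the 25746 gene IDs counted, of which 22092 had a count in at least 1 sample. All 40 also passed the filter on low counts that left 17031 genes for testing. The data were RNA-seq counts from mouse brain in 29 samples, each called a mouse below. The comparisons asked how these genes differed after stroke, between immunodeficient strains and under immunosuppression. Stroke was a photothrombotic lesion of the right sensorimotor cortex, in which illumination of a dye in the blood clots the vessels, and tissue was taken at 21 days post injury (dpi). The stroked groups were WT mice (C57BL/6 background, n = 4), WT mice given tacrolimus from 0 dpi (WT-Tacr acute, n = 3), WT mice given tacrolimus from 7 dpi (WT-Tacr delayed, n = 5), Rag2-/- mice (n = 3) and NSG mice (n = 3). The non-stroked groups were WT (n = 4), Rag2-/- (n = 3) and NSG mice (n = 4), and the tacrolimus groups had no non-stroked mice of their own, so all 3 WT groups were compared with the same 4 non-stroked WT mice. Tacrolimus is a calcineurin inhibitor that blocks T cell activation and was given by a pump under the skin. Rag2-/- mice form no mature lymphocytes of the T and B lineages. NSG mice, on a NOD background, lack these cells and natural killer cells as well and are deficient in part of cytokine signalling. Mice were 3 months old and of both sexes, and the study describes the non-stroked tissue both as contralesional and as from naïve mice. In the first case stroked and non-stroked samples could come from the same animals, while the fit treated all 29 samples as independent.

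A cell that enters the cycle first loads the MCM helicase onto its DNA and then copies its genome with the help of the sliding clamp Pcna and the enzymes that make nucleotides. It then accumulates cyclins A and B, which activate the kinase Cdk1, builds a spindle, and separates its chromosomes once the checkpoint releases the anaphase-promoting complex through Cdc20. In the adult mouse brain neurons do not divide, while microglia, oligodendrocyte precursors, endothelial cells, reactive astrocytes and infiltrating or perivascular cells can, and in injured tissue these divisions are known to peak in the first days to weeks.

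Total counts were between 17789044 and 43403413 per mouse. The sample titles carry the prefix Imm2 (20 mice) or TF (9 mice), called cohorts below, and the TF libraries were shallower (17789044 to 29928311 counts, against 32507506 to 43403413). All non-stroked, Rag2-/- and NSG mice were in the Imm2 cohort and all WT-Tacr delayed mice in the TF cohort, while stroked WT mice 1 and 2 and WT-Tacr acute mouse 1 were Imm2, and stroked WT mice 3 and 4 and WT-Tacr acute mice 2 and 3 were TF. Gfap, a marker of reactive astrocytes, was at 102 to 172 CPM (counts scaled to library size) in non-stroked WT and 765 to 1144 CPM in stroked WT mice. WT-Tacr acute mice 1 and 2 stood apart with 267 and 189 CPM, against 928 CPM in mouse 3, and Cd68, a marker of phagocytes, was at 17.9 and 8.49 CPM in these mice, against 49.9 CPM in mouse 3 and 8.93 to 11.1 CPM in non-stroked WT. Rag2 had 0 counts in 28 of 29 libraries and 2 counts in stroked WT mouse 4, so it could not check the genotype.

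In non-stroked WT tissue most of the 40 genes were expressed at a low level. The mean CPM exceeded the median of all tested genes, 15.2 CPM, for 2 of the 40, which were Pcna and E2f1. Compared per kilobase of exon, Pcna, the clamp that holds DNA polymerase on its template, was highest with 9.88 CPM per kb (range 8.93 to 10.9 over 4 mice). It was followed by the S phase transcription factor E2f1 (5.51, range 4.51 to 5.95) and by the MCM helicase genes Mcm4 (3.08, range 2.82 to 3.30), Mcm7 (2.07, range 1.96 to 2.13) and Mcm5 (1.67, range 1.65 to 1.70). The ranges of these 5 genes did not overlap. The other members lay lower, and there genes of replication and of mitosis were mixed, with the spindle gene Tpx2 at 0.647 and the replication gene Cdc6 at 0.0928 CPM per kb. Mki67, the proliferation marker Ki-67, was at 0.404 CPM per kb (range 0.349 to 0.453) and the DNA-untangling enzyme Top2a at 0.226 (0.196 to 0.265). Cdk1 (0.0679, 0.0334 to 0.0882) and the checkpoint kinase Bub1 (0.0535, 0.0312 to 0.0731) were at the bottom of the order. Ranges of neighbouring genes in this lower part overlapped, and counts were small there: Cdk1 had 6 to 16 counts in each non-stroked WT mouse. For 10 of the 40 another gene of the count table overlaps on the opposite strand, such as Cops6 and Ap4m1 at Mcm7 and Elovl1 at Cdc20, and for Cdt1 one overlaps on the same strand, so that the counts of these genes are uncertain. Whether counting used the strand is not given in the sources used here.

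Promoter sequences are shown for 4 members because many cell cycle genes are known to be induced through a small set of shared promoter elements. RefSeq gives a promoter, from 250 bases before to 50 bases after the transcription start (build GRCm38.p6), for 35 of the 40 genes, and none for Ccna2, Aurkb, Kif20a, Mcm4 and Tpx2. Searched on both strands were the cell cycle homology region (CHR, TTTGAA or TTCGAA), which binds the DREAM and MuvB complexes of mitotic genes, the CCAAT box (CCAAT), and the E2F element (TTTCGCGC or TTTGGCGC) of S phase genes. The CHR letters were in 19 of 35 member promoters (54.3%) and in 21.7% of the promoters of 27025 genes, CCAAT in 28 of 35 (80.0% against 41.1%) and the E2F letters in 7 of 35 (20% against 0.929%). The E2F letters occurred in 6 of the 12 replication genes with a promoter (Mcm3, Mcm5, Mcm6, Mcm7, Uhrf1 and Cdt1) and in Cdk1. The CHR letters occurred in 2 of these 12 (Mcm2 and Mcm7), in all 3 genes of anaphase ubiquitination (Cdc20, Cdca3 and Ube2c), in 5 of 7 genes of the kinetochore and spindle and in both Mki67 and Top2a. These matches are descriptions of the letters and not binding sites. Below, the matched letters are in capitals, and a match on the other strand reads as its reverse complement (ATTGG for CCAAT). The Cdk1 promoter (chr10:69352863-69353162, minus strand) holds 2 CHR, 3 CCAAT and 1 E2F match, and that of Ccnb2, cyclin B2 (chr9:70421505-70421804, minus strand), holds 2 CHR and 3 CCAAT matches. The Mcm5 promoter (chr8:75109259-75109558, plus strand) holds 3 CCAAT matches and 2 E2F matches that overlap in opposite orientation. The Mcm7 promoter (chr5:138171834-138172133, minus strand) holds 1 CHR, 3 CCAAT and 1 E2F match, and one of its CCAAT boxes overlaps the E2F element.
Cdk1: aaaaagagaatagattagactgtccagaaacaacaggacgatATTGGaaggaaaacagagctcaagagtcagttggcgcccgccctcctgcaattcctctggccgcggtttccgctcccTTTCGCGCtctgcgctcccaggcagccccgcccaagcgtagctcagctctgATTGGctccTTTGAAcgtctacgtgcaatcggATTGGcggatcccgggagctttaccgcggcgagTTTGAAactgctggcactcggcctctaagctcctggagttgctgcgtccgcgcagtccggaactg
Ccnb2: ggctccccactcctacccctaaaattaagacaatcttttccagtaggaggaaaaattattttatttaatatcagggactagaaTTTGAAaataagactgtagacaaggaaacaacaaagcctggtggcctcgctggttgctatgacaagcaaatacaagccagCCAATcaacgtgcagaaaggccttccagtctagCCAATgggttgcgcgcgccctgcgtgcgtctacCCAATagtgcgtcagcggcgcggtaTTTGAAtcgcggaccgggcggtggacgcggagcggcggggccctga
Mcm5: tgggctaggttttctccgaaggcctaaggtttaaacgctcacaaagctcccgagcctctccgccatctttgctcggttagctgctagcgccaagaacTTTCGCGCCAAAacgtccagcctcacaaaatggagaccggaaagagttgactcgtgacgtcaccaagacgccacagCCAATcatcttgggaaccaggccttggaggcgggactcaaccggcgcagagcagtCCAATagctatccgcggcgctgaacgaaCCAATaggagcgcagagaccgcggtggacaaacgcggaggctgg
Mcm7: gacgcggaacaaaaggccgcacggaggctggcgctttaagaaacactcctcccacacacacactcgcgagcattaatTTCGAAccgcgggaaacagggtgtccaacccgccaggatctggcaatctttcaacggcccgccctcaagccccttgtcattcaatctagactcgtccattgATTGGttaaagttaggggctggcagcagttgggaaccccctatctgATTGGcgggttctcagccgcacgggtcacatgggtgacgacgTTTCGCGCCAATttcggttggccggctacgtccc

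At 21 dpi stroked WT cortex differed from non-stroked WT in few of these genes: Mcm7, Mcm3 and Cdc20 were higher, by 1.43-, 1.80- and 1.63-fold, and no member was called lower. A gene is called here when edgeR's quasi-likelihood test gave an adjusted p below 0.05 over all 17031 genes, with no minimum fold. The 3 called members are 7.5% of the 40, while 15.2% of all tested genes were called higher after stroke in WT and 11.6% lower, so the members' share was below the background in both directions. At an unadjusted p below 0.05 there were 8 members with a higher and 1, Kif23, with a lower value, where 39.4% of all genes passed that limit. DESeq2 called 5 members higher and 1, Kif23, lower. The median log2 fold change was 0.36 over the 40 genes and close to 0 over all genes, but it was 0.07 in the Imm2 cohort alone and 0.15 with cohort as a term in the fit. In bulk tissue, fewer cells of a type and less RNA per cell cannot be told apart, and likewise more cells and more RNA per cell.

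**Figure D1:**
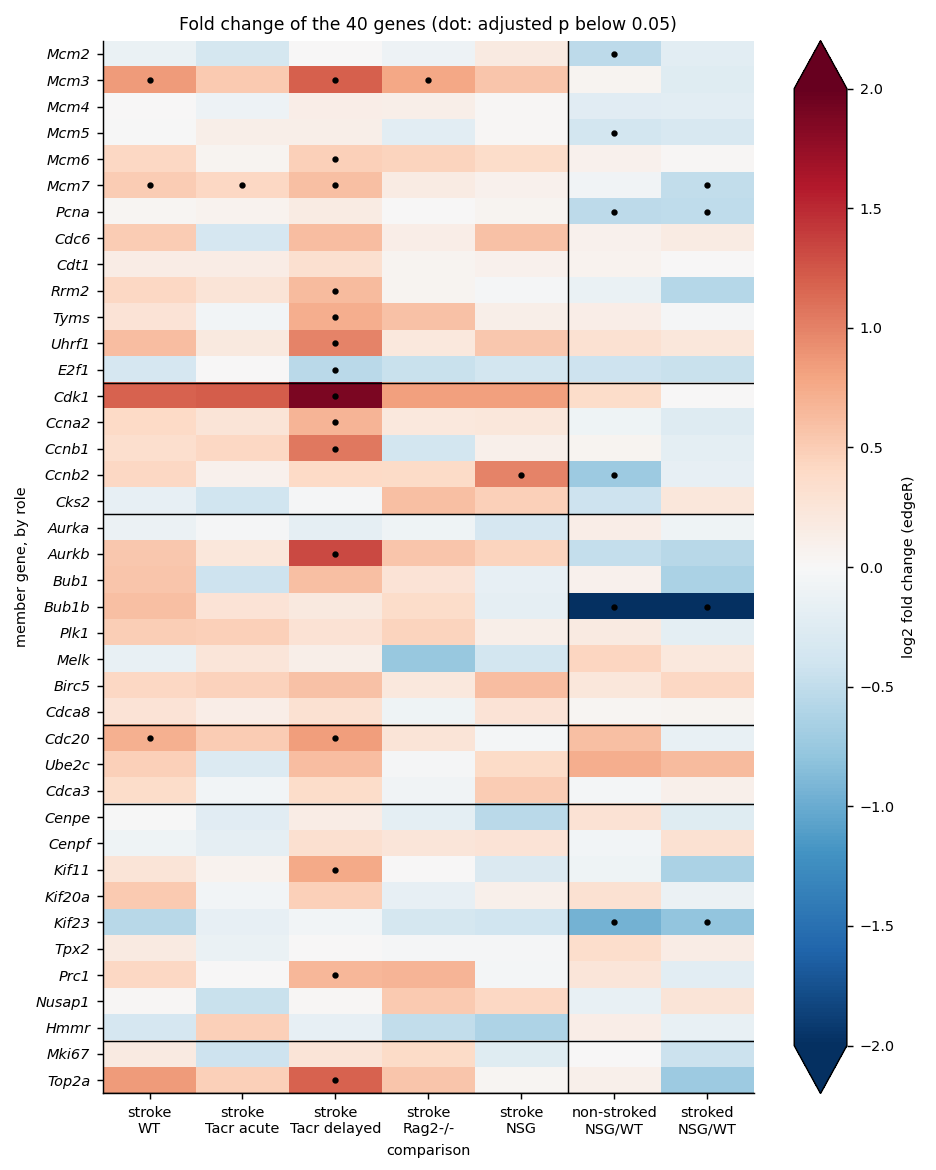
Log2 fold change of each of the 40 genes (rows, separated by role) in the 5 stroke comparisons and in NSG against WT mice without and with stroke (columns). A dot marks an adjusted p below 0.05 in edgeR. Most dots lie in the WT-Tacr delayed column, and Bub1b has the strongest decrease in both NSG columns.

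Mcm7 (ENSMUSG00000029730, chr5:138164583-138172422, minus strand), a helicase subunit, had 9.23, 9.25, 9.44 and 8.66 CPM in non-stroked WT mice 1, 3, 4 and 5 and 11.4, 12.3, 12.8 and 15.7 CPM in stroked WT mice 1 to 4. The groups did not overlap, and stroked mouse 4 was the highest (log2 fold change 0.51, SE 0.107, adjusted p = 0.00117, edgeR). Mcm3 (ENSMUSG00000041859, chr1:20802968-20820312, minus strand), another subunit of the same ring, had 3.05, 2.23, 2.78 and 2.23 CPM without and 3.81, 3.72, 5.30 and 5.74 CPM with stroke, again without overlap (0.85, SE 0.197, adjusted p = 0.00296, edgeR). Cdc20 (ENSMUSG00000006398, chr4:118432901-118437352, minus strand), which activates the anaphase-promoting complex, had 0.797, 0.598, 0.636 and 0.825 CPM without and 0.985, 0.917, 1.43 and 1.37 CPM with stroke (0.71, SE 0.232, adjusted p = 0.0257, edgeR). In all 3 genes the TF mice 3 and 4 were the highest of the stroked WT mice, and the Imm2 mice 1 and 2 lay closer to the controls.

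The remaining replication genes gave adjusted p values above the threshold. Mcm6 had 5.87, 5.66, 7.69 and 6.40 CPM in non-stroked and 7.17, 8.53, 9 and 9.47 CPM in stroked WT mice, and the lowest stroked mouse lay within the control range (log2 fold change 0.41, adjusted p = 0.0716, edgeR). Uhrf1, which carries DNA methylation over to the new strand, had 1.28, 0.898, 1.19 and 1.15 CPM without and 1.34, 1.31, 2.35 and 2.05 CPM with stroke, and its Imm2 mice lay just above the highest control (0.62, adjusted p = 0.0634, edgeR).

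Among the genes of mitosis, Cdk1 (ENSMUSG00000019942, chr10:69335146-69352938, minus strand) had 0.342, 0.435, 0.398 and 0.165 CPM in non-stroked and 0.48, 0.5, 1.26 and 0.886 CPM in stroked WT mice. These values did not overlap, but they rest on 6 to 16 and 18 to 29 counts, and the interval of the log2 fold change of 1.18 was wide (95% interval 0.23 to 2.12, adjusted p = 0.0579, edgeR). Top2a (ENSMUSG00000020914, chr11:98992943-99024189, minus strand) had 2.39, 1.77, 1.96 and 2.03 CPM without and 1.82, 2.83, 5.17 and 4.98 CPM with stroke. Stroked mouse 1 lay inside the control range and both TF mice were over 4 CPM (0.85, adjusted p = 0.0543, edgeR).

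Mki67 (ENSMUSG00000031004, chr7:135689784-135716361, minus strand), the most used marker of cells in cycle, had 4.56, 3.51, 4.11 and 4.10 CPM in non-stroked and 3.66, 4.86, 4.91 and 4.98 CPM in stroked WT mice. The groups overlapped, and the log2 fold change was 0.18 (95% interval -0.35 to 0.70, adjusted p = 0.64, edgeR). Kif23, the kinesin of the central spindle, had 2.25, 1.88, 1.80 and 2.78 CPM without and 1.29, 1.28, 1.56 and 1.83 CPM with stroke (-0.55, adjusted p = 0.0648, edgeR). Only the highest stroked mouse reached the control range, so its direction was opposite to that of Mcm3 and Cdc20.

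**Figure D2:**
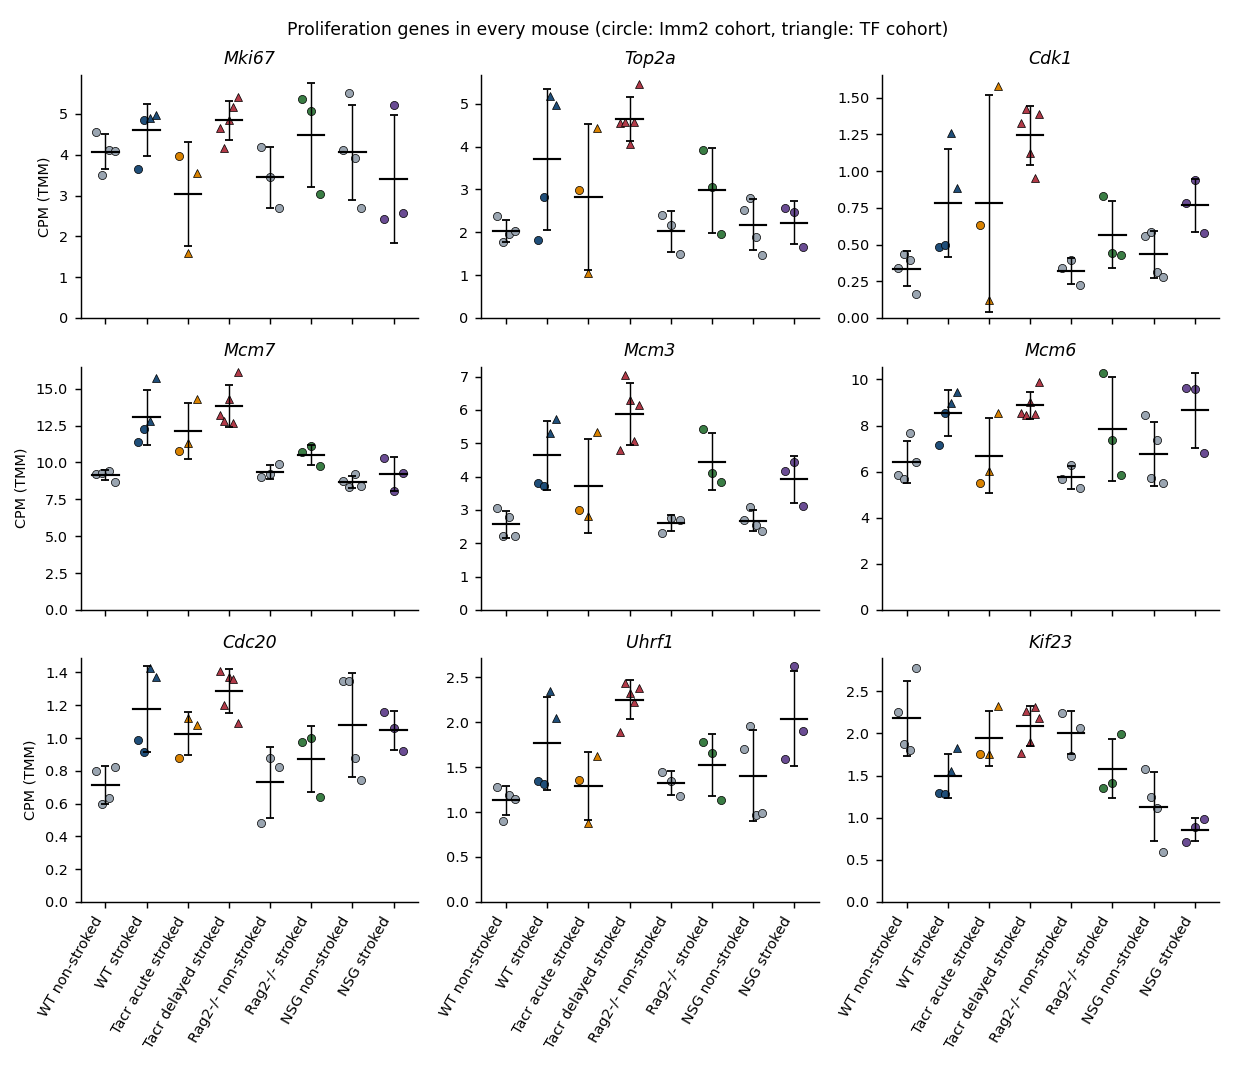
CPM (TMM-scaled, linear axes from 0) of 9 members in each mouse, by group; circles are Imm2 and triangles TF mice, horizontal bars are means and whiskers ± 1 SD. Mcm7 and Mcm3 in stroked WT mice lie above the non-stroked WT mice, while Mki67 overlaps between the groups, and for Cdk1 the triangles lie at 0.886 to 1.58 CPM except WT-Tacr acute mouse 2 at 0.125 CPM.

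The stroked WT mice came from both cohorts. Set against the Imm2 mice, the 2 TF mice had positive differences in 35 of the 40 members, with a median of 0.31 on the log2 scale and the largest for Bub1 (1.63, SE 0.559), Aurkb (1.28, SE 0.502) and Top2a (1.11, SE 0.409). The first 2 rest on few counts: Bub1 had 6 and 7 in the Imm2 and 14 and 16 in the TF mice, and Aurkb 14 and 8 against 16 and 24. No member passed the adjusted threshold in this comparison of 2 against 2 mice, added after the data were seen and fitted with the WT groups split by cohort, where 14.6% of 17661 genes did, and 6 members had an unadjusted p below 0.05, as had 29% of all genes (edgeR; DESeq2 was not run here). A fit of these 4 mice alone called 4 members higher and 1 lower, beside 11.4% and 14.6% of 16099 genes. The neuron markers summed to 4153 and 4385 CPM in the TF and 5951 and 5805 CPM in the Imm2 mice, with 3 of 4 called lower, and 2 of 5 oligodendrocyte precursor markers were also lower in the TF mice. The part of these cells in the members' values was not tested. Within the Imm2 cohort 1 member was called after stroke in WT, Mcm7 (log2 fold change 0.38, adjusted p = 0.0239, edgeR), and the values for Mcm3 and Cdc20 were 0.56 (adjusted p = 0.0801) and 0.42 (adjusted p = 0.437). With cohort as a term in the fit the one call was again Mcm7 (0.38, adjusted p = 0.0221). Without stroked WT mouse 1 or mouse 2, both Imm2, the number of called members was 8 or 6 in place of 3. Markers of other cell types also differed between stroked and non-stroked WT mice. The 6 microglia and macrophage markers summed to 319 to 394 CPM against 163 to 193 CPM, with 5 of 6 called higher. The 4 fibroblast markers summed to 216 to 504 CPM against 26.0 to 38.0 CPM, with 4 of 4 called higher. Of the astrocyte markers 4 of 4 were called higher, and of the T cell markers 4 of 5 tested. Lower were 3 of 4 neuron, 3 of 4 endothelium (56.2 to 105 against 118 to 151 CPM) and 1 of 5 oligodendrocyte precursor markers. Of 6 neural progenitor and neuroblast markers 1 was higher and 1 lower. The part of these cells in the members' values was not tested.

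WT-Tacr delayed mice had the highest number of called members, though not once cohort was a term in the fit. Of the 40 genes 14 (35%) were called higher than in non-stroked WT mice and 1 lower, beside 27.6% of all tested genes called higher and 27.6% lower. The share called higher was near the background and the share called lower (2.5%) far under it. The median log2 fold change was 0.38 over the members, and 35 of 40 values were positive. By role, the calls comprised 6 higher and 1 lower of 13 genes of DNA replication and S phase, 3 of 5 among the cyclins, Cdk1 and Cks2, 1 of 8 mitotic kinases and checkpoint genes, 1 of 3 genes of anaphase ubiquitination, 2 of 9 genes of the kinetochore and spindle, and Top2a but not Mki67.

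The largest difference was that of Cdk1, with 1.33, 1.42, 1.12, 0.951 and 1.39 CPM in WT-Tacr delayed mice 1 to 5, each above every non-stroked WT mouse. Its log2 fold change was 1.88 (SE 0.438, adjusted p = 0.00091, edgeR). Aurkb, the kinase of the chromosomal passenger complex, had 0.925, 0.756, 0.910, 0.724 and 0.893 CPM against 0.342, 0.354, 0.398 and 0.247 CPM (1.32, SE 0.370, adjusted p = 0.00433, edgeR), also without overlap. Top2a had 4.54, 4.57, 4.06, 4.57 and 5.46 CPM, all above the control range (1.18, SE 0.314, adjusted p = 0.00273, edgeR).

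Mcm3 had the smallest p of the members, with 4.79, 7.06, 6.29, 5.07 and 6.15 CPM (log2 fold change 1.19, SE 0.190, adjusted p = 1.86e-05, edgeR), and Mcm7 had 13.2, 12.8, 14.3, 12.7 and 16.1 CPM (0.60, SE 0.102, adjusted p = 4.18e-05, edgeR). Both were above all controls in every mouse. The other genes called higher were the cyclin genes Ccnb1 (1.05) and Ccna2 (0.68), Uhrf1 (0.99), Cdc20 (0.84), the spindle kinesin Kif11 (0.76), the nucleotide enzymes Tyms (0.72) and Rrm2 (0.64), the spindle midzone protein Prc1 (0.67) and Mcm6 (0.47, all log2 fold changes). Their adjusted p values were between 0.00122 and 0.0343 (edgeR).

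E2f1 went the other way, with 12.1, 16.3, 10.1, 10.8 and 10.2 CPM in WT-Tacr delayed mice and 18.4, 18.8, 18.2 and 14.2 CPM in non-stroked WT mice. WT-Tacr delayed mouse 2 and non-stroked WT mouse 5 overlapped, and the log2 fold change was -0.54 (SE 0.175, adjusted p = 0.0112, edgeR). Mki67 had 4.66, 4.16, 4.84, 5.16 and 5.41 CPM, which overlapped with the controls (0.25, 95% interval -0.25 to 0.75, adjusted p = 0.393, edgeR).

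All WT-Tacr delayed mice were TF and all their controls Imm2, so that stroke with delayed tacrolimus and the cohort cannot be told apart by this comparison alone. With cohort as a term, which is estimated from the stroked WT and WT-Tacr acute mice, none of the 40 genes was called, 3 had an unadjusted p below 0.05 and the median fell to 0.22. In that fit the log2 fold change of Cdk1 was 1.04 (adjusted p = 0.3), that of Top2a 0.57 (adjusted p = 0.457), that of Mcm3 0.68 (adjusted p = 0.0885) and that of E2f1 -0.04 (adjusted p = 0.937), while 5.71% of all genes were still called higher and 3.29% lower. The microglia and macrophage markers summed to 385 to 481 CPM in these mice, the fibroblast markers to 288 to 1208 CPM, and the neuron markers to 3588 to 4631 CPM against 6454 to 7219 CPM in non-stroked WT. Called higher were 4 of 4 astrocyte and 1 of 2 tested B cell markers. Called lower were 1 of 4 endothelium and 1 of 5 oligodendrocyte precursor markers. Of 6 neural progenitor and neuroblast markers 1 was higher and 3 lower. Of the 6 T cell markers 5 were tested and 5 called higher, and their sum was 16.3 to 32.0 CPM against 3.84 to 10.2 CPM, most of it Cd4. This sum does not follow T cells, since it was 4.18 to 36.2 CPM in non-stroked NSG mice, where Cd3e, Cd3d, Cd3g and Cd8a were at 0. The part of these cells in the members' values was not tested.

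Compared directly with stroked WT mice, WT-Tacr delayed mice had no called member, as no gene of 17031 was called (0%). At an unadjusted p below 0.05 there were 4 members, Aurkb, Ccnb1, Kif11 and Kif23, a share of the 40 below the 20.3% of all genes, and DESeq2 called 0. The intervals of the 40 differences reached 0.475 on either side as a median, so that differences under about this size could not be resolved. Within the TF cohort the median difference of the 40 genes was 0.01 and none was called.

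WT-Tacr acute mice differed from non-stroked WT mice in 1 member, Mcm7, beside 6.18% of all genes called higher and 2.36% lower. For 2 of the 3 WT-Tacr acute mice the names of the submitted tables disagreed with the sample titles, and the titles were used. Mcm7 had 10.8, 11.3 and 14.3 CPM in mice 1 to 3, each above the highest control (log2 fold change 0.41, SE 0.115, adjusted p = 0.032, edgeR). The call was lost without WT-Tacr acute mouse 3 and also without any one of the 4 non-stroked WT mice, and 2 members were called without WT-Tacr acute mouse 1 or mouse 2. Mouse 2 had the lowest values of the series for several members: 1.58 CPM of Mki67, 1.04 CPM of Top2a and 0.125 CPM of Cdk1, the last from 3 counts. Mouse 3, of the same cohort, had 3.55, 4.44 and 1.58 CPM of these genes. Gfap and Cd68, given above, were low in mice 1 and 2 and high in mouse 3, as were the fibroblast markers, which ranged from 29.1 to 309 CPM within the group. How far the extent of the lesion in the sampled tissue sets the members' values was not tested.

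WT-Tacr acute mice had no called member against stroked WT mice, where again no gene of 17031 passed (0%), 3 members (Hmmr, Mki67 and Cdc6) had an unadjusted p below 0.05 beside 12.7% of all genes, and DESeq2 called 0. Without WT-Tacr acute mouse 3, 2 members were called. WT-Tacr delayed mice had 4 members called higher than WT-Tacr acute mice and 1 lower, beside 10.4% and 9.96% of all genes. Uhrf1 had 1.36, 0.874 and 1.62 CPM in WT-Tacr acute mice and 1.89, 2.43, 2.32, 2.22 and 2.38 CPM in WT-Tacr delayed mice, without overlap (0.80, SE 0.262, adjusted p = 0.0342, edgeR). Tyms, which makes thymidylate, had 1.12, 1.04 and 1.89 CPM and 2.01, 2.77, 2.61, 1.45 and 2.68 CPM (0.78, SE 0.252, adjusted p = 0.0322, edgeR), and here mouse 3 of the former and mouse 4 of the latter overlapped. Mcm3 (0.66, SE 0.206, adjusted p = 0.0264) and Mcm2 (0.36, SE 0.125, adjusted p = 0.0429) were higher and E2f1 lower (-0.54, SE 0.190, adjusted p = 0.0441, all edgeR). All 5 are genes of DNA replication and S phase. These calls depended on single mice: leaving out WT-Tacr acute mouse 1 or 2, or WT-Tacr delayed mouse 3 or 5, left 0, leaving out WT-Tacr delayed mouse 2 or 4 left 1 or 3, and leaving out WT-Tacr acute mouse 3 raised the number to 14. With cohort as a term in the fit 0 members were called and 7 had an unadjusted p below 0.05 (median difference 0.34). That fit still called 5.16% of all genes higher and 4.13% lower. In the TF cohort alone, with 2 and 5 mice, no gene of 15984 was called, so no member could be, and 10 members had an unadjusted p below 0.05 beside 4132 of all genes. The members' median difference was 0.39 there and 0.38 in all mice. In all mice it was 0.36, 0.26 and 0.47 without WT-Tacr acute mouse 1, 2 and 3. Marker genes moved with this comparison: 5 of 6 for microglia and macrophages (385 to 481 CPM against 208 to 372 CPM), 4 of 4 for fibroblasts (288 to 1208 against 29.1 to 309 CPM), 2 of 4 for astrocytes and 2 of 4 for choroid plexus (11.1 to 840 against 3.87 to 17.2 CPM) were higher in WT-Tacr delayed mice, and 4 of 4 for neurons were lower. Their part in the members' values was not tested.

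After stroke in Rag2-/- mice 1 member was called higher, Mcm3, and none lower, beside 6.71% and 1.53% of all genes. Mcm3 had 2.32, 2.77 and 2.70 CPM in non-stroked and 5.42, 4.10 and 3.83 CPM in stroked Rag2-/- mice, without overlap (log2 fold change 0.78, SE 0.228, adjusted p = 0.0325, edgeR). The call was lost without any one of the 3 non-stroked mice or without stroked mouse 1. Cdk1 had 0.340, 0.395 and 0.222 CPM without and 0.832, 0.443 and 0.429 CPM with stroke (0.82, 95% interval -0.30 to 1.94, adjusted p = 0.41, edgeR), and Mki67 4.19, 3.46 and 2.70 CPM without and 5.36, 5.07 and 3.03 CPM with stroke (0.38, adjusted p = 0.507, edgeR). Stroked Rag2-/- mouse 3 had the lowest value of its group for Cdk1, Mki67 and Mcm3.

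After stroke in NSG mice 1 member was called higher, Ccnb2, and none lower, beside 13.0% and 8.89% of all genes. Ccnb2 (ENSMUSG00000032218, chr9:70407692-70421547, minus strand), which encodes cyclin B2, had 0.322, 0.432, 0.425 and 0.309 CPM in non-stroked and 0.810, 0.815 and 0.612 CPM in stroked NSG mice (log2 fold change 0.99, SE 0.245, adjusted p = 0.00581, edgeR). The stroked NSG values lay in the range of the other strains, and the non-stroked NSG values lay below it. Without stroked NSG mouse 3, 2 members were called. Of the marker genes 4 of 6 for microglia and macrophages, 4 of 4 for fibroblasts and 3 of 4 for astrocytes rose after stroke in Rag2-/- mice. In NSG mice 5 of 6 for microglia and macrophages, 4 of 4 for fibroblasts and 2 of 4 for astrocytes rose. There 1 of 5 oligodendrocyte precursor markers rose, and 1 of 4 neuron and 1 of 6 neural progenitor and neuroblast markers fell. Their part in the members' values was not tested. For NSG mice, a further value near the threshold was that of Mcm3. Mcm3 had 2.69, 3.10, 2.55 and 2.38 CPM without and 4.18, 4.45 and 3.12 CPM with stroke (0.55, SE 0.210, adjusted p = 0.0627, edgeR). Thus no stroked mouse of any strain overlapped with the non-stroked mice of its strain for Mcm3 except WT-Tacr acute mice 1 and 2.

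The stroke response of Rag2-/- mice did not differ detectably from that of WT mice for any of the 40 genes: none was called, as none of 17031 genes was (0%), 1 had an unadjusted p below 0.05, Mcm7 (-0.34, 95% interval -0.68 to -0.01), beside 4.19% of all genes, and DESeq2 called 0. For NSG mice 5 genes of 17031 (0.0294%) differed in response and none was a member. An unadjusted p below 0.05 was found for Mcm7 (-0.42, 95% interval -0.75 to -0.10) and Cdc20 (-0.75, -1.44 to -0.06), beside 12.7% of all genes, and DESeq2 called 0. Rag2-/- and NSG mice were all Imm2, while stroked WT mice 3 and 4 were TF. The median difference in response was -0.19 for Rag2-/- and -0.17 for NSG mice, but -0.02 and -0.04 with cohort as a term and 0.05 and 0.03 in the Imm2 cohort alone, where 0 and 2 members had an unadjusted p below 0.05. The 95% intervals of these differences reached 0.758 and 0.735 on either side as a median over the members, on the log2 scale, so that the data left room for differences of that size.

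**Figure D3:**
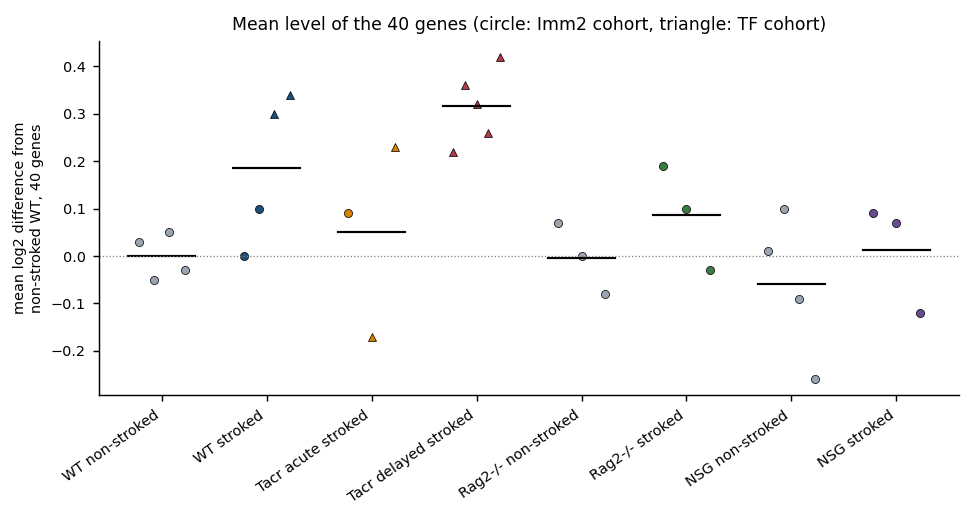
Mean over the 40 genes of the difference in log2(CPM + 0.5) from the mean of the non-stroked WT mice, for each mouse by group; circles are Imm2 and triangles TF mice, and bars are group means. All values lie between -0.26 and 0.42, with the 5 WT-Tacr delayed mice, stroked WT mice 3 and 4 and WT-Tacr acute mouse 3 at 0.22 to 0.42.

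Averaged over the 40 genes, on the log2(CPM + 0.5) scale and relative to non-stroked WT mice, the level was 0.00 and 0.10 in the Imm2 and 0.30 and 0.34 in the TF stroked WT mice. WT-Tacr delayed mice were between 0.22 and 0.42, WT-Tacr acute mice at 0.09, -0.17 and 0.23, stroked Rag2-/- mice between -0.03 and 0.19 and stroked NSG mice between -0.12 and 0.09. The non-stroked mice spread from -0.26 to 0.10. The stroked Imm2 mice lay within the spread of the non-stroked mice except Rag2-/- mouse 1, and the TF mice lay above it except WT-Tacr acute mouse 2.

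Without stroke, NSG mice had 6 members called lower than WT mice (15.0% of the 40) and none called higher, beside 4.92% of all genes called lower and 4.84% higher. Bub1b (ENSMUSG00000040084, chr2:118598211-118641591, plus strand), which encodes the checkpoint protein BubR1 that delays anaphase until chromosomes are attached, differed most. It had 0.702, 0.762, 0.255 and 0.402 CPM in non-stroked NSG mice 1 to 4, against 2.19, 2.45, 1.86 and 2.83 CPM in non-stroked WT mice. NSG mice had 9 to 30 and WT mice 70 to 103 counts, and the log2 difference was -2.12 (SE 0.333, adjusted p = 6.87e-05, edgeR).

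**Figure D4:**
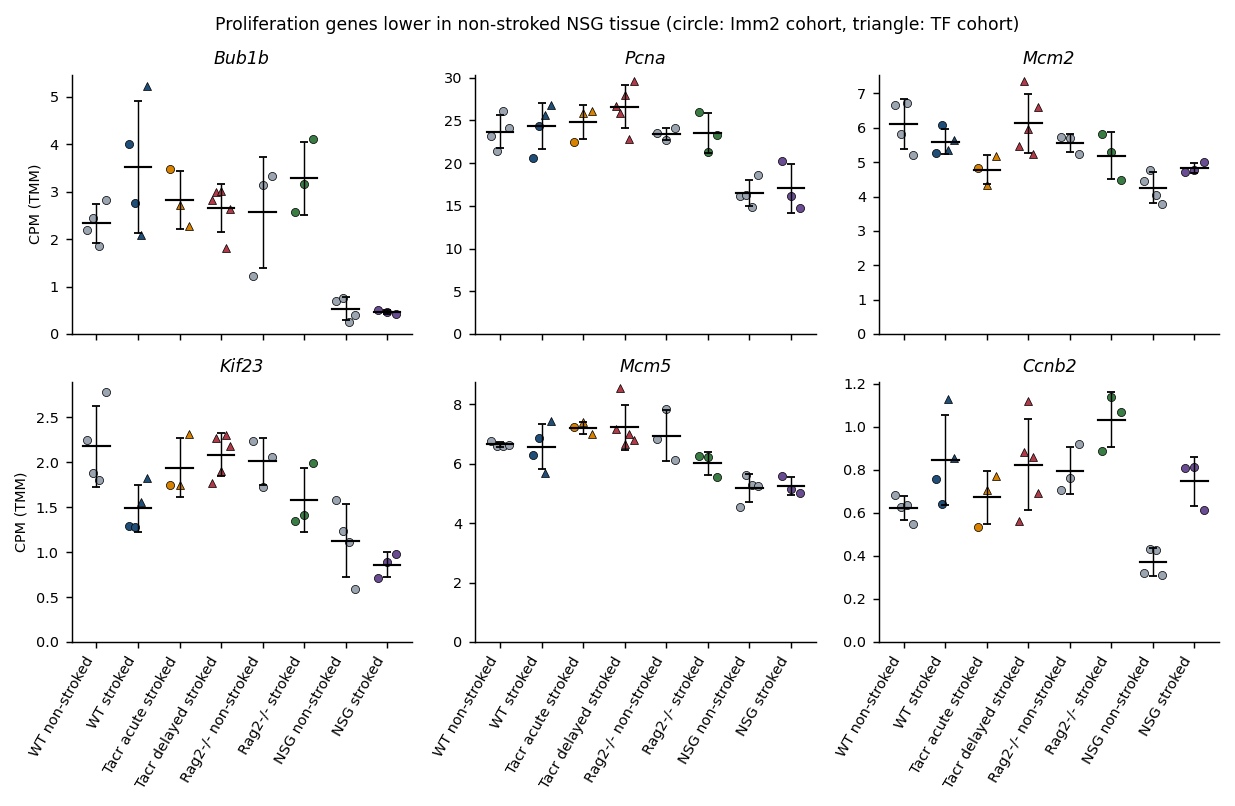
CPM (TMM-scaled, linear axes from 0) of the 6 members called lower in non-stroked NSG than in non-stroked WT mice, in each mouse of all groups; circles are Imm2 and triangles TF mice, bars are means and whiskers ± 1 SD. For Bub1b all 7 NSG mice lie at or under 0.762 CPM and all other mice at or above 1.22 CPM.

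Pcna had 16.1, 16.3, 14.9 and 18.6 CPM in non-stroked NSG mice and 23.2, 21.4, 26.1 and 24.1 CPM in non-stroked WT mice, without overlap (log2 difference -0.53, SE 0.103, adjusted p = 0.000995, edgeR). Mcm2 had 4.45, 4.77, 4.05 and 3.77 CPM against 6.66, 5.82, 6.73 and 5.22 CPM (-0.52, SE 0.119, adjusted p = 0.00464, edgeR). Kif23 had 1.58, 1.24, 1.11 and 0.588 CPM against 2.25, 1.88, 1.80 and 2.78 CPM (-0.94, SE 0.222, adjusted p = 0.00596, edgeR). These 3 genes also did not overlap between the strains. The helicase subunit Mcm5, at 4.53 to 5.64 CPM against 6.60 to 6.78 CPM (-0.36, SE 0.104, adjusted p = 0.0253), and Ccnb2, at 0.309 to 0.432 CPM against 0.550 to 0.683 CPM (-0.73, SE 0.233, adjusted p = 0.0444), completed the called members. These calls were not equally stable. Bub1b and Pcna kept theirs in 17 of 17 other settings of the processing, Mcm2 in 16, Kif23 in 15 and Mcm5 in 10. Ccnb2 kept its call in 3 of 16 and rests on 10 to 17 counts in NSG and 20 to 24 in WT mice. Mki67, Top2a and Cdk1 overlapped between the strains. Of the marker genes, 2 of 6 for microglia and macrophages (216 to 252 CPM in NSG against 163 to 193 CPM in WT mice), 2 of 5 for oligodendrocyte precursors (300.0 to 332 against 237 to 266 CPM) and 1 of 3 erythroid markers were higher in NSG mice, and their part in the members' values was not tested.

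Against non-stroked Rag2-/- mice 5 of these 6 genes were again lower in NSG mice (12.5% of the 40, beside 3.26% of all genes called lower and 3.07% higher), and none was higher. Bub1b had 1.22, 3.13 and 3.34 CPM in non-stroked Rag2-/- mice (log2 difference of NSG -2.25, SE 0.350, adjusted p = 6.87e-05, edgeR), Pcna 23.5, 22.7 and 24.1 CPM (-0.51, SE 0.111, adjusted p = 0.00363, edgeR) and Ccnb2 0.708, 0.760 and 0.921 CPM (-1.08, SE 0.246, adjusted p = 0.00551, edgeR). Mcm5 (-0.42) and Kif23 (-0.83) were the others, with calls kept in 10 and 7 of 16 other settings, and Mcm2 was not called. Without Rag2-/- mouse 1 or mouse 2, 3 members were called. Here 1 of 6 microglia and macrophage, 2 of 5 oligodendrocyte precursor and 1 of 3 erythroid markers were higher in NSG mice, and their part was not tested. Both comparisons use the same 4 NSG mice. Between non-stroked Rag2-/- and WT mice no member was called, 1 had an unadjusted p below 0.05 (Melk, log2 difference 0.64, beside 2.05% of all genes), DESeq2 called 0, and 0.00587% of all genes differed. NSG and WT mice differ in background as well as in immune cells, and the 2 cannot be told apart.

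Among stroked mice 4 members were lower in NSG than in WT mice (10% of the 40, beside 6.27% of all genes lower and 6.60% higher), a comparison added after the data were seen. Bub1b had 0.506, 0.469 and 0.428 CPM in stroked NSG mice and 4.01, 2.75, 2.09 and 5.22 CPM in stroked WT mice (log2 difference -2.90, SE 0.376, adjusted p = 5.03e-06, edgeR). Pcna (-0.51, SE 0.112, adjusted p = 0.00313), Mcm7 (-0.50, SE 0.116, adjusted p = 0.00535) and Kif23 (-0.79, SE 0.251, adjusted p = 0.0379, all edgeR) followed. In the Imm2 cohort alone Bub1b was the one call (-2.85, adjusted p = 0.00028, edgeR), and the values were -0.41 for Pcna (adjusted p = 0.0843), -0.37 for Mcm7 (adjusted p = 0.058) and -0.59 for Kif23 (adjusted p = 0.358). Of the marker genes, 3 of 5 for oligodendrocyte precursors and 2 of 3 erythroid markers were higher and 3 of 5 tested T cell markers lower in stroked NSG mice. Also higher were 1 of 6 microglia and macrophage and 1 of 4 endothelium markers, and 1 of 4 astrocyte markers was lower. Of 6 neural progenitor and neuroblast markers 3 were higher and 2 lower. The part of these cells in the members' values was not tested. The lower level of Bub1b was thus present with and without stroke and against both other strains.

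Of 92 further cell cycle genes, in 7 lists that do not share a gene with the 40, 91 were tested. After stroke in WT mice 11 were called higher and 1 lower, in WT-Tacr acute mice 1 and 0, in WT-Tacr delayed mice 34 and 9, in Rag2-/- mice 3 and 0 and in NSG mice 10 and 5, to be read against the shares of all genes given above for each comparison. Between the TF and Imm2 stroked WT mice 6 of 92 were higher and 1 lower, with a median of 0.15, as large as the median of 0.15 after stroke in WT mice. The counts in WT-Tacr delayed mice compare TF with Imm2 mice, and the effect of the cohort on them cannot be told apart from that of stroke. In the list of G1 cyclins and kinases, whose products start the cycle, 2 of 9 were higher in WT mice. Cdk4, the kinase partner of the D cyclins, had 28.2, 27.8, 27.4 and 28.7 CPM in non-stroked and 34.9, 35, 38.2 and 42.6 CPM in stroked WT mice (log2 fold change 0.42, SE 0.0897, adjusted p = 0.00133, edgeR). Ccnd3, cyclin D3, had 13.0, 14.7, 18.3 and 18.1 CPM without and 20.6, 20.6, 25.4 and 30.0 CPM with stroke (0.59, SE 0.145, adjusted p = 0.00455, edgeR). For both genes the Imm2 as well as the TF stroked mice were above every control. Ccnd3 was also called in stroked Rag2-/- (0.54) and NSG mice (0.60), and Cdk4 in NSG mice (0.37). Cdk2 and Ccne1, which act at the entry into S phase, were called in WT-Tacr delayed mice, at 1.14 and -0.38.

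Among 7 CDK inhibitors, which hold cells out of the cycle, 2 were called higher in WT mice, Cdkn2a and Cdkn2c. Cdkn2a, whose products are Ink4a and Arf, had 0, 0, 0 and 1 counts in the non-stroked WT mice and 6, 4, 5 and 10 counts in the stroked WT mice. Summed and scaled to total counts the ratio was 30.4 (exact 95% interval 4.97 to 1247, counting error only), and edgeR gave an adjusted p = 0.00192. The counts were 2, 4 and 4 in WT-Tacr acute mice (ratio 17.0, 2.41 to 737) and 5, 11, 10, 2 and 5 in WT-Tacr delayed mice (46.1, 7.72 to 1875), and both were called. Rag2-/- mice had 3, 0 and 1 counts without and 7, 3 and 2 with stroke (ratio 3.04, 0.923 to 13.0, not called), and NSG mice 0, 2, 0 and 0 without and 11, 13 and 3 with stroke (17.4, 4.37 to 151, called). Every stroked WT, WT-Tacr and NSG mouse thus had more counts than every non-stroked mouse of the same strain, at a level of at most 13 counts in a library. Cdkn2c was higher in stroked than in non-stroked WT mice (log2 fold change 0.69, SE 0.194, adjusted p = 0.0108, edgeR), and Cdkn1a, which encodes p21, was called in WT-Tacr delayed (0.59) and NSG mice (0.70).

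**Figure D5:**
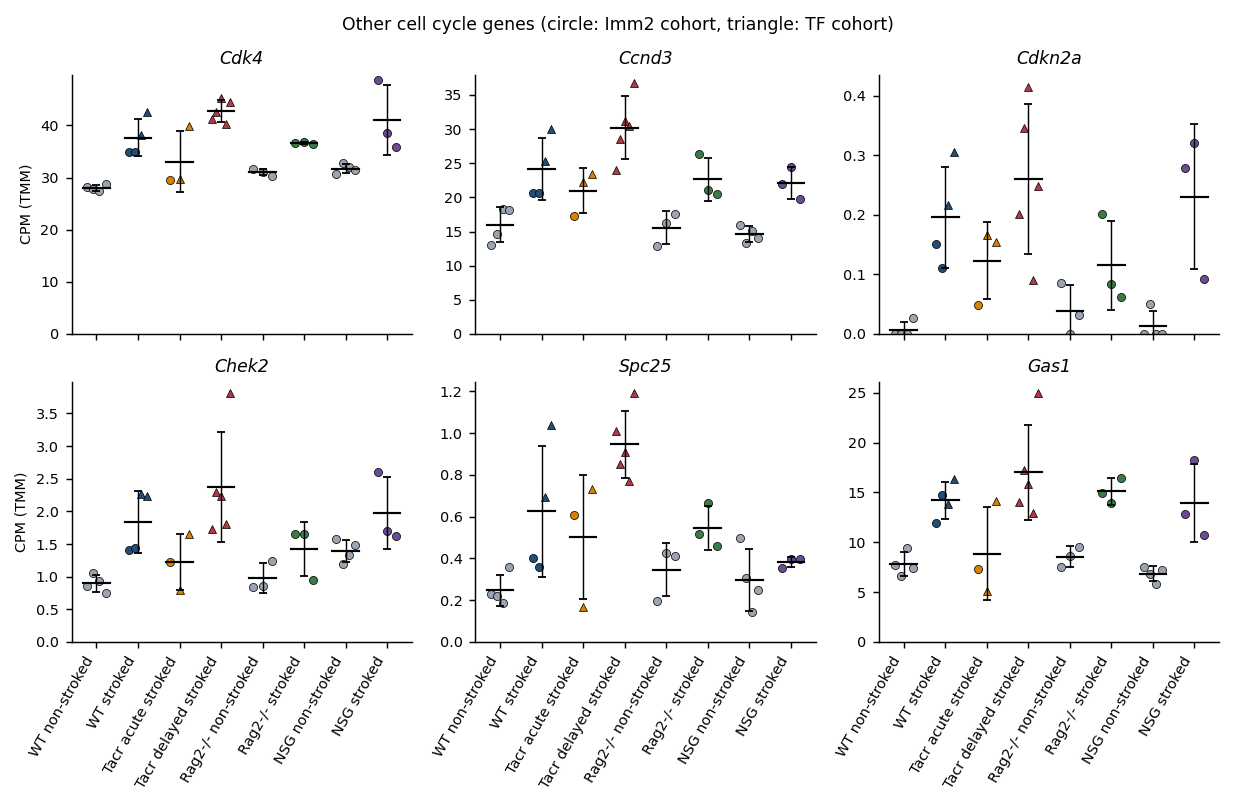
CPM (TMM-scaled, linear axes from 0) of 6 other cell cycle genes in each mouse, by group; circles are Imm2 and triangles TF mice, bars are means and whiskers ± 1 SD. Cdk4, Ccnd3 and Gas1 in all 4 stroked WT mice lie above the non-stroked WT mice, and Cdkn2a rests on at most 13 counts in a library.

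Of 19 replication fork genes 2 were higher in WT mice, the single-strand DNA binding subunit Rpa2 (log2 fold change 0.55, adjusted p = 0.0104) and the helicase component Gins2 (0.81, adjusted p = 0.0121, both edgeR), and Gins2 was also called in NSG mice (0.83). Of 10 DNA damage checkpoint and recombination genes 1 was higher in WT mice, the checkpoint kinase Chek2, with 0.854, 1.06, 0.928 and 0.742 CPM without and 1.41, 1.44, 2.26 and 2.23 CPM with stroke (1.02, SE 0.269, adjusted p = 0.00721, edgeR). In NSG mice 0 of these 10 genes were called higher and 3 lower after stroke, beside 13.0% and 8.89% of all genes. Their median log2 fold change there was -0.44. In WT-Tacr delayed mice 4 of the 10 were higher and 1 lower. None of the 19 genes of the Rb, E2F, DREAM and MuvB list was called in WT mice by edgeR. In WT-Tacr delayed mice 5 were higher and 2 lower, and in NSG mice 1 was lower. The condensin and centromere list, which holds genes of chromosome packing and attachment, had 2 of 20 tested genes higher in WT mice, the kinetochore subunit Spc25 (1.31, adjusted p = 0.0177) and the condensin subunit Smc4 (0.62, adjusted p = 0.0179, both edgeR). In WT-Tacr delayed mice, all TF against Imm2 controls, 9 of 20 were higher and 1 lower, beside 27.6% of all genes in each direction. In NSG mice 2 were higher and 1 lower, and in Rag2-/- mice 1 was higher and none lower.

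In the list of quiescence and antiproliferative genes 2 of 7 were called higher and 1 lower in WT mice, beside 15.2% and 11.6% of all genes. Gas1, growth arrest specific 1, had 7.77, 6.64, 9.41 and 7.45 CPM in non-stroked and 11.9, 14.7, 13.8 and 16.4 CPM in stroked WT mice (log2 fold change 0.86, SE 0.224, adjusted p = 0.0067, edgeR), and it was called in Rag2-/- (0.82) and NSG mice (1.03) as well. Btg1, an antiproliferative factor, rose in WT mice (0.74, SE 0.195, adjusted p = 0.00774), and Ccng1, cyclin G1, fell (-0.33, SE 0.114, adjusted p = 0.0348, both edgeR). Between the TF and Imm2 stroked WT mice 2 of these 7 genes were also called higher, beside 5.1% of all genes.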

How the data were processed

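RNA was taken by the authors from stroked cortex and non-stroked tissue. Their libraries were stranded and made from polyA RNA, and a core facility did the alignment and counting. The aligner, genome build and strand setting are not given in the sources used here. The deposited values are raw counts of reads per gene, 1 table per mouse. Groups and cohorts came from the sample labels (for 2 WT-Tacr acute mice table names disagreed with the titles, which were used), and gene names and positions from GENCODE M21 (GRCm38). Counts were tested in R 4.3.3 with edgeR 4.0.16 (TMM normalization, filterByExpr by group, glmQLFit and glmQLFTest at their defaults), in 1 fit of 8 groups, 29 mice and 17031 genes, with Benjamini-Hochberg adjustment over these genes and a threshold of 0.05. P-values measure the spread between mice. The SE is the absolute log2 fold change divided by the square root of F. CPM are counts scaled to TMM-adjusted totals. Precision is limited by depth for members with few counts. The fit was tested on simulated data first.

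The members and lists were chosen with earlier results of these data known. Described in full were Mki67, Top2a, Cdk1, the 6 other members with the smallest p after stroke in WT, and members called in other comparisons. From the pathway lists at most 4 genes each were named, smallest p after stroke in WT first, among those called in a stroke comparison. Alternatives were RLE normalization, other filters on low counts, a covariate for cohort, fits of 1 cohort or of the groups compared alone, DESeq2 1.42.0, a minimum fold, a replicate block and leaving out each mouse. Stroked NSG against WT mice and the cohort comparison were added after the data were seen.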

Additional observations from a re-analysis of the deposited data

Results flagged for a closer look

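In 160 groups of 4 or 5 mice, 1 for each member and group, 10 values stood far from the rest of their group, where chance would give about 8 at 1 in 20. Mki67 was at 3.66 CPM in stroked WT mouse 1 and at 4.86 to 4.98 CPM in the other stroked WT mice. Aurka, a kinase of the spindle poles, was at 0.833 CPM in stroked WT mouse 2 (others 1.19 to 1.24). Cdc6 was at 1.04 CPM in stroked WT mouse 3 (others 0.58 to 0.606) and at 1.19 CPM in WT-Tacr delayed mouse 5 (others 0.538 to 0.693). Ccnb1 was at 0.563 CPM in WT-Tacr delayed mouse 1 (others 1.17 to 1.39), and Mcm5 at 8.54 CPM in WT-Tacr delayed mouse 2 (others 6.66 to 7.16). Among non-stroked WT mice, mouse 1 had 6.78 CPM of Mcm5 (others 6.60 to 6.62) and 3.59 CPM of Tpx2, a spindle assembly factor (others 2.83 to 2.86), mouse 4 had 1.17 CPM of Hmmr (others 0.825 to 0.883), and mouse 5 had 14.2 CPM of E2f1 (others 18.2 to 18.8).

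The stroke difference relative to the shared non-stroked WT mice differed between WT-Tacr delayed and WT-Tacr acute mice for 5 members, tested directly with edgeR: Mcm2 (0.36), Mcm3 (0.66), Tyms (0.78), Uhrf1 (0.80) and E2f1 (-0.54, log2 differences). The delayed mice were all TF and the acute mice 1 Imm2 and 2 TF. Within the TF cohort no gene of 15984 was called, so the loss of these calls there says nothing about the members. Their median difference was 0.39 there and 0.38 in all mice, but 0.26 in all mice without WT-Tacr acute mouse 2. With cohort as a term in the fit 0 members were called, beside 5.16% of all genes called higher and 4.13% lower.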

How the results depend on the processing

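RLE normalization moved no number of called members by over 1.5 times. With cohort as a covariate 1 member was called after stroke in WT, 0 in WT-Tacr acute, 0 in WT-Tacr delayed, 2 in NSG and 0 in WT-Tacr delayed against acute. In the Imm2 cohort only, the counts were 1 in WT, 0 in WT-Tacr acute, 2 in NSG and 1 in stroked NSG against WT, and in the TF cohort only 0 in delayed against acute. DESeq2 called 6 in WT (5 higher and 1 lower), against 3 higher by edgeR. With only the groups compared in the fit, the counts were 0 in WT-Tacr acute, 0 in NSG, 0 in delayed against acute, 1 in stroked NSG against WT and 5 between the cohorts of stroked WT mice. No filter on low counts gave 3 in delayed against acute, and a mean of at least 1 CPM gave 0 in NSG, since it removes Ccnb2. An absolute log2 fold change above 1 left 0 in WT, 0 in WT-Tacr acute, 5 in WT-Tacr delayed, 0 in Rag2-/-, 0 in NSG, 1 in non-stroked NSG against WT, 2 in NSG against Rag2-/-, 0 in delayed against acute and 1 in stroked NSG against WT. Leaving out 1 mouse gave 2 to 8 in WT, 0 to 2 in WT-Tacr acute, 13 to 17 in WT-Tacr delayed, 0 to 1 in Rag2-/-, 1 to 2 in NSG, 4 to 5 in non-stroked NSG against WT, 3 to 6 in NSG against Rag2-/-, 0 to 2 in acute against WT, 0 to 14 in delayed against acute and 3 to 6 in stroked NSG against WT, and 0 in the other comparisons. Except where a setting tests fewer genes or mice by its construction, the cause was not tested. Over 41 results for single genes and 618 settings, 481 kept their call, 137 lost it, none changed direction, and 6 results kept it in every setting run. Replicate numbers did not pair the non-stroked mice of different strains: correlations of same-numbered deviations were between -0.258 and 0.108. Whether stroked and non-stroked samples were paired was not tested. With the replicate block 2 members were called in non-stroked NSG against WT (4 in the same mice without it), 3 in NSG against Rag2-/- (4 without) and 0 in Rag2-/- against WT. Precision was limited for genes such as Cdk1, with 3 to 45 counts in a library.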

Other observations

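A further large strain difference was that of Pttg1, securin, the inhibitor of separase, which was named after its values were seen. It had 0.497, 0.406, 0.482 and 0.309 CPM in non-stroked NSG mice against 16.8, 18.7, 19.1 and 17.8 CPM in non-stroked WT mice (log2 difference -5.40, SE 0.171, adjusted p = 1.04e-17, edgeR), and 1.01, 0.445 and 0.704 CPM in stroked NSG mice. All 7 NSG mice lay below every other mouse of the series, as for Bub1b. Also named after their values were seen, the checkpoint kinase Ttk (1.69, adjusted p = 0.00261) and the repair gene Brca1 (0.98, adjusted p = 0.00199) were higher and the condensin gene Ncapd2 (-0.68, adjusted p = 9.77e-05, all edgeR) lower in non-stroked NSG than in WT mice. Of the 91 further cell cycle genes tested, 5 were called higher and 6 lower in this comparison. These shares were near the 4.84% and 4.92% of all genes.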
